A study of Mus musculus with 45 samples.

Results

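Elastic fibre genes encode the proteins that give stretchable tissues their recoil. Of 8 genes listed by symbol for this family, 7 were measured among 18193 genes: Eln (elastin), Lox (lysyl oxidase), the fibulins Fbln5, Fbln1 and Fbln2, Fbn2 (fibrillin 2) and Emilin1 (elastin microfibril interfacer 1). Fbn1 (fibrillin 1) was not analysed here. Where a gene had several probe sets, the one brightest on average across the arrays was read. The genes were listed by symbol, with earlier results of these data known.

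The genes were followed through mouse heart development on 45 Affymetrix arrays in 15 groups of 3. The R1 line of embryonic stem cells (ESC) formed 1 group, and all tissue came from wild-type CD1 mice. Embryonic day 7.5 (E7.5) was represented by whole embryos and E8.5 by the heart tube. From E9.5 on, left and right ventricles were separate groups, at E12.5, E14.5, late gestation (E18.5), day 3 after birth and in adults of unstated age. No animal carried an engineered allele or received an agent. Each array of an E7.5, E8.5 or E9.5 group pooled roughly 30 to 50 embryos or hearts, an array at E12.5 or E14.5 pooled 10 to 20 hearts, and an E18.5 array pooled 3 to 5. An array at day 3 or in the adult held 1 heart. Values are log2 expression levels, so a difference of 1 is 2-fold, and levels of different genes were not compared because probe sets differ in brightness. The values come with no call of detection, so a level below the median of all array values, 5.41, was not shown to be above background, and differences from such levels are given on the log2 scale with no fold.

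In an elastic fibre, tropoelastin made from Eln is deposited on a scaffold of fibrillin microfibrils and is cross-linked by lysyl oxidase. Fibulin 5 links tropoelastin to the cross-linking enzymes and to cells, and emilin 1 sits where elastin meets the microfibrils. In the heart these fibres are known above all from the great arteries, the coronary vessels, the valves and the loose tissue under the outer and inner linings.

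Heart muscle markers were checked first, and their mean was not used to tell ventricle from atrium or left from right. The mean of 10 such markers was 5.81 to 6.29 in the ESC and E7.5 arrays and 12.9 to 13.8 from E8.5 on. Myh11, a defining marker of mature smooth muscle, averaged 4.09 at E12.5 and 4.29 at E14.5, below 5.41, and 8.08 in the adult. It is 1 of 9 smooth muscle markers, whose mean was 8.98 in left and 9.15 in right ventricles at E12.5. That mean was 6.42 in E7.5 embryos and 9.62 in heart tubes, rising together with the heart muscle list. It was therefore not read as smooth muscle content. Array 2 of the adult right ventricle stood apart: it gave the highest value of its group for all 7 genes. The mean of 10 fibroblast markers in that array was 11.8, against 10.4 to 10.8 in the other 5 adult arrays, and the mean of 5 fat cell markers was 6.11, against 4.06 to 5.31. The part of these cells in its values was not tested, and adult results of the members are also given without that array, where left array 2 stood alone for its pair. The mean of 7 atrial markers was 9.35 to 9.68 in E12.5 ventricles, 7.40 to 8.52 at day 3 and 6.59 to 9.77 in adults, the highest being right array 3. Marker lists of other tissues also marked 1 array each at E7.5, E8.5, E14.5 and E18.5, named beside the results, and the part of that tissue was not tested. In bulk tissue, fewer cells of a type and less RNA per cell cannot be told apart.

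RefSeq sequence before the start site (GRCm38.p6) was at hand for 4 of the measured genes, and it is shown for Fbln5, which changed most between E9.5 and E12.5, and for Fbln1, which ran the other way at that step. Each run is the 250 bases directly upstream of the annotated gene, given 5′ to 3′ on the strand of the gene, at chr12:101819120-101819369 (minus strand) for Fbln5 and chr15:85205699-85205948 (plus strand) for Fbln1. Capitals mark matches on either strand to the GC box GGGCGG, the TATA box TATAAA and the Smad element CAGACA.
Fbln5: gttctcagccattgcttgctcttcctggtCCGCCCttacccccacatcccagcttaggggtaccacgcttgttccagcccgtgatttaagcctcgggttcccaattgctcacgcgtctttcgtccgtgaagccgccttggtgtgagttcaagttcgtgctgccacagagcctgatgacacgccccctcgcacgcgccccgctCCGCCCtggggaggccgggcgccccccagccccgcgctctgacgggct
Fbln1: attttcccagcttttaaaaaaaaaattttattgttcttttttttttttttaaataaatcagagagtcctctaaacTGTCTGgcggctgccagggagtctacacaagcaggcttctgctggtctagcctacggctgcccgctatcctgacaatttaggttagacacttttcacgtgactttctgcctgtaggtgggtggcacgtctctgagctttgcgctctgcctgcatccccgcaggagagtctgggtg
The Fbln5 run held the GC box 2 times, beginning 221 and 48 bases before the start, both on the opposite strand. The Fbln1 run held no GC box and held 1 Smad element, beginning 175 bases before the start, also on the opposite strand. RefSeq gave each gene a second start inside the gene, and the windows before those starts differed. At chr15:85205758-85206007, which overlaps the printed run, Fbln1 held 1 GC box, 11 bases before the start. It also held the same Smad element, 234 bases before that start. At chr12:101818485-101818734 Fbln5 held no GC box and 1 Smad element. The motifs a gene holds here thus depend on the start chosen. Neither printed run held a TATA box, and the matches do not overlap each other. Among 32851 RefSeq windows of this length, 32.7% held a GC box, 12.4% a TATA box and 17.1% a Smad element. A match describes the letters and is not evidence of binding.

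Elastin and its cross-linking partners came on between E9.5 and E12.5. Eln, Fbln5, Lox, Fbln2 and Emilin1 were higher in E12.5 ventricles than in E9.5 ventricles, every E12.5 array lying above every E9.5 array, while Fbln1 was slightly lower and Fbn2 was already high and did not pass the test. These were 5 of 7 genes higher, where 20.1% of all genes were called higher, and 1 of 7 lower, where 18% were. Called means an adjusted p under 0.05 in limma, with left and right ventricles of the same number averaged and p-values adjusted by Benjamini-Hochberg over all 18193 genes. The median difference of the 7 genes was 1.86, against 0.045 over all genes.

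Fbln5 gave 4.29, 4.62 and 4.46 in left and 3.68, 4.31 and 4.25 in right ventricles at E9.5. At E12.5 it gave 6.73, 6.70 and 6.45 in left and 10.20, 9.99 and 9.84 in right ventricles. All E12.5 values were far above those of E9.5, and the right ventricles were far above the left. The rise was 4.05 ± 0.20 (SE of the fit, n = 3 averaged pairs), with limma's adjusted p = 2.71e-13. The E9.5 values lie below 5.41, so the size of the rise rests on a level not shown to be above background.

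Lox, whose enzyme oxidises lysines of elastin and collagen, gave 4.38, 5.23 and 4.56 in left and 4.84, 5.52 and 5.01 in right ventricles at E9.5. At E12.5 it gave 8.34, 8.26 and 8.36 in left and 9.25, 8.97 and 8.99 in right ventricles. It rose in both ventricles, by 3.60 ± 0.22 in left ventricles and by 3.95 ± 0.31 in right ventricles, and the change in left minus right between these stages was -0.35 ± 0.39 (limma's adjusted p = 1, 95% interval -1.15 to 0.45). Over both ventricles the rise was 3.78 ± 0.23 (limma's adjusted p = 1.19e-11).

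Eln gave 4.87, 5.30 and 5.5 in left and 5.5, 5.83 and 4.82 in right ventricles at E9.5, then 6.24, 6.59 and 6.50 in left and 10.00, 9.60 and 9.65 in right ventricles at E12.5. The left arrays had only begun to part from E9.5, and the right arrays had moved far. The rise was 1.22 ± 0.31 in left ventricles (limma's adjusted p = 0.00398) and 4.37 ± 0.37 in right ventricles (3.03e-09). Fbln5 showed the same order, with 2.17 ± 0.29 in left and 5.93 ± 0.25 in right ventricles. The inequality was tested directly: left minus right fell by 3.15 ± 0.54 for Eln (adjusted p = 7.16e-04) and by 3.76 ± 0.41 for Fbln5 (2.06e-07) from E9.5 to E12.5. No other member passed, so 2 of 7 were lower in this contrast, against 0.429% of all genes.

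In fits of 1 ventricle, 5 of 7 genes were called higher on either side, where 15.7% of all genes were called higher in left and 18.3% in right ventricles. Fbln1 was called lower in left ventricles (15.2% of all genes were), and no member was in right ventricles (15.1%), where Fbln1 gave -0.43 ± 0.34. Fbln2 (fibulin 2, a binder of fibrillin and tropoelastin) rose by 1.86 ± 0.16 over both ventricles, and Emilin1 by 1.16 ± 0.16. Fbln1, an elastin-binding fibulin also found in basement membranes, fell by 0.55 ± 0.21 (adjusted p = 0.0466), a call lost when any of the 6 replicates was left out (0.0466 became at most 0.132). All 10 fibroblast markers rose at this step as well, their mean going from 7.44 to 7.97 in E9.5 arrays to 9.74 to 10.6 in E12.5 arrays. Of 9 smooth muscle markers 1 was higher (20.1% of all genes were) and 4 were lower (18% were). Their mean was 9.3 to 9.6 in E9.5 arrays and 9.0 to 9.2 in E12.5 arrays. It was 9.62 in heart tubes, and how much of it comes from smooth muscle was not tested. The part of fibroblasts or smooth muscle cells in the rise was not tested.

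**Figure D1:**
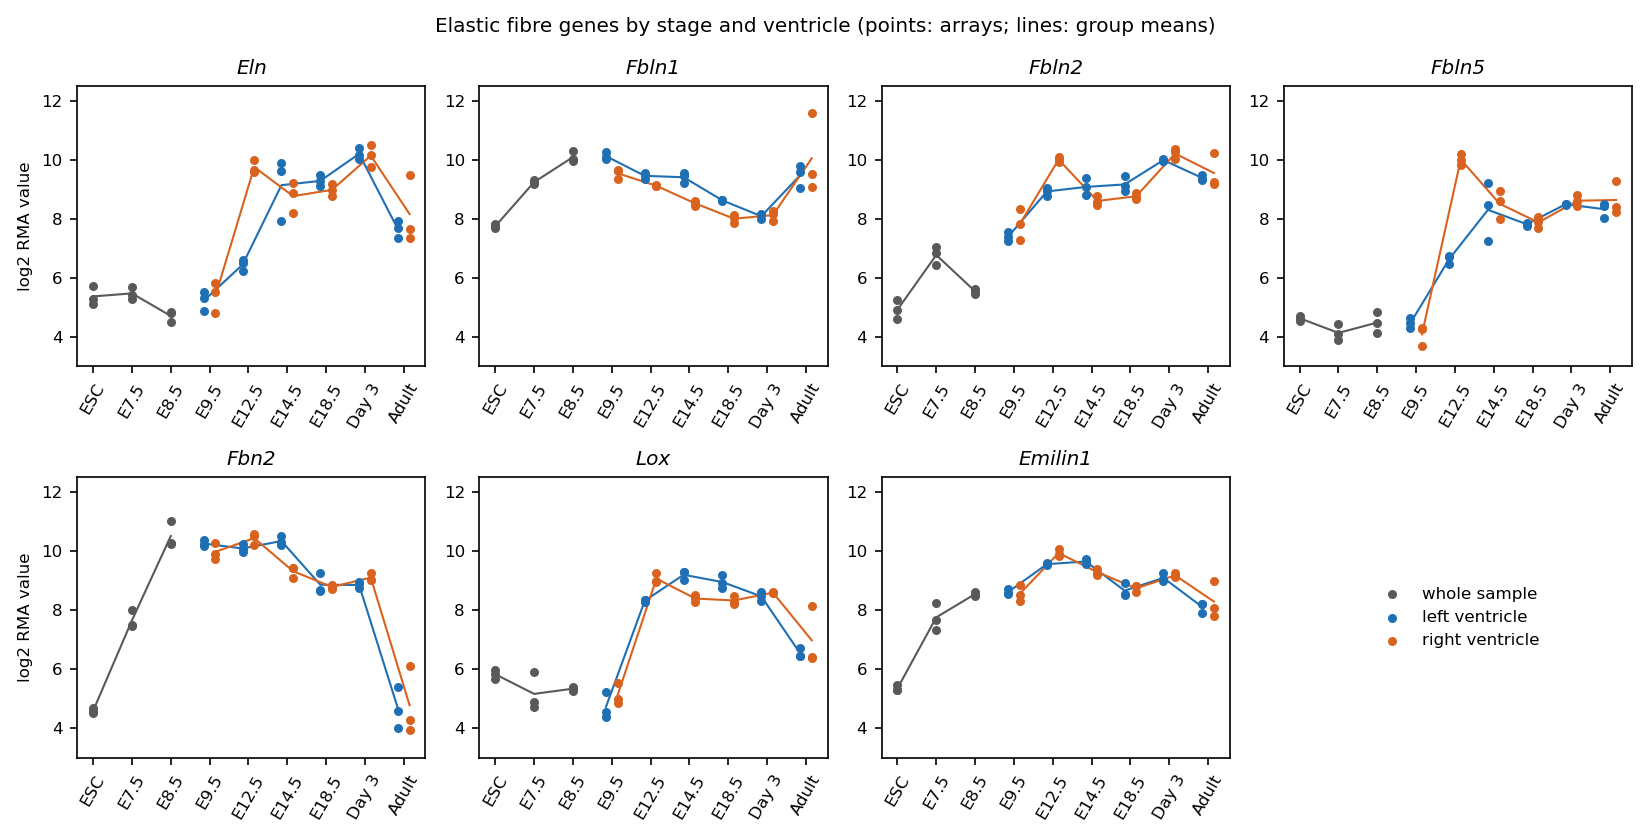
Log2 RMA values (vertical axis) of the 7 genes on every array, by stage (horizontal axis). Points are arrays, lines join group means, grey is ESC, embryo or heart tube, blue left and orange right ventricle. The right ventricles of Eln and Fbln5 stand above the left at E12.5, by 3.31 and 3.38, and Fbn2 drops in the adult.

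Before the ventricles formed, fibrillin 2 and emilin 1 rose at each step. Fbn2, Emilin1, Fbln1 and Fbln2 were higher in E7.5 embryos than in ESC (4 of 7, against 24.3% of all genes), and Fbln5 and Lox were lower (2 of 7, against 25.2%). Fbn2, the fibrillin of embryonic microfibrils, gave 4.58, 4.69 and 4.50 in ESC, 8.0, 7.49 and 7.47 at E7.5, and 11.01, 10.26 and 10.28 at E8.5. The 3 groups did not overlap, and the steps were 3.07 ± 0.27 and 2.86 ± 0.27 (7.25-fold). Emilin1 gave 5.46, 5.29 and 5.30 in ESC, 7.34, 8.25 and 7.68 at E7.5 and 8.63, 8.54 and 8.48 at E8.5, again in separate ranges. Fbln5 gave -0.50 ± 0.20, and with single replicates left out its call held only without E7.5 replicate 3 (-0.64 to -0.38 over 6 fits). Lox gave -0.67 ± 0.23, a call lost without ESC replicate 2, E7.5 replicate 1 or E7.5 replicate 3 (-1.03 to -0.44), and its E7.5 arrays overlapped the ESC arrays. Array 2 of the E7.5 embryos held 1.92 more of a decidua and trophoblast marker list than the others, and its part was not tested.

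From E7.5 to E8.5, Fbn2, Fbln1 and Emilin1 were called higher (3 of 7, against 20.4% of all genes), and Eln and Fbln2 lower (2 of 7, against 28.1%). Eln gave -0.76 ± 0.25, a call lost without E7.5 replicate 1 or E8.5 replicate 1 (-0.85 to -0.65 over 6 fits). Fbln2 went down and up: it gave 6.43, 7.04 and 6.84 at E7.5, 5.45, 5.62 and 5.55 at E8.5, and 7.25 to 8.35 in the 6 ventricle arrays of E9.5. The groups next to each other did not overlap, and the steps were -1.23 ± 0.16 and 2.06 ± 0.16. Whole embryos hold tissue other than heart, and array 2 of the heart tubes held 2.97 more of a visceral endoderm marker list than the other 2. Fbln2 was the 1 of 7 genes called higher from E8.5 to E9.5, where 12.8% of all genes were called higher, and 0 of 7 were called lower, where 14.1% were. In that step left ventricles alone gave a lower Lox too (-0.62 ± 0.22, limma's adjusted p = 0.0492), and limma with only the groups compared gave a higher Eln (0.60, 0.0132).

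**Figure D2:**
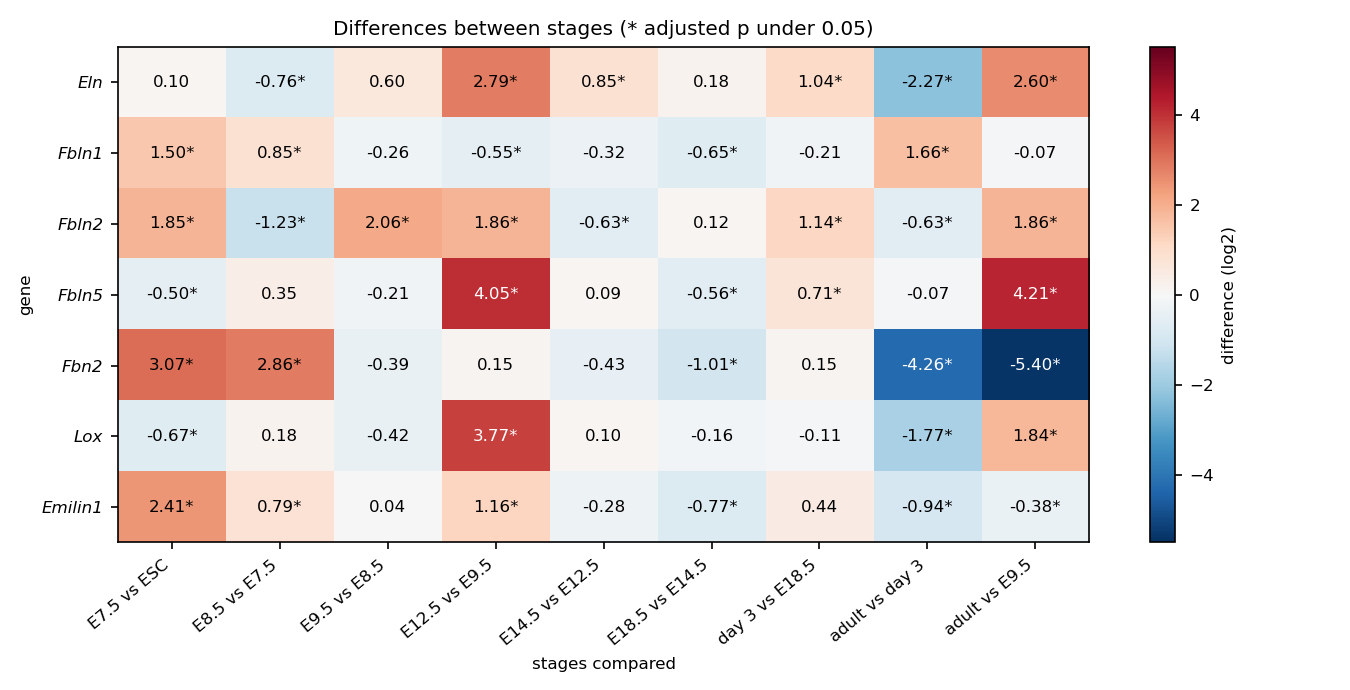
Differences in log2 level between the later and the earlier stage (horizontal axis, 9 comparisons) for the 7 genes (vertical axis). Red is higher and blue lower in the later stage, and an asterisk marks an adjusted p under 0.05. Fbln5 rises by 4.05 at E12.5, and Fbn2 has its low of -5.40 in the adult against E9.5.

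At E12.5 the right ventricle held far more of Fbln5 and Eln than the left. Left minus right was -3.38 ± 0.29 for Fbln5 (10.4-fold, limma's adjusted p = 6.7e-10) and -3.31 ± 0.38 for Eln (9.90-fold, 3.99e-07). By size these were places 1 and 2 of the 167 genes called lower in the left ventricle, which were 0.918% of all genes, and 0.346% were called higher. The third call was Fbln2, with 8.78, 9.05 and 8.95 in left and 10.08, 9.92 and 10.01 in right ventricles, a difference of -1.08 ± 0.21 (adjusted p = 0.00213). The left and right arrays of all 3 genes kept apart in the probe sets used. With each of the 6 arrays left out in turn, the difference ran from -3.47 to -3.29 for Fbln5, from -3.39 to -3.18 for Eln and from -1.14 to -1.01 for Fbln2, all called.

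The other members differed less. Lox (-0.75 ± 0.28, limma's adjusted p = 0.318) and Emilin1 (-0.38 ± 0.18, 0.613) lay lower in all left arrays without passing the test over all 45 arrays, and both passed in a fit of only the E12.5 arrays (0.00265 and 0.0426). The SEs over 45 arrays use 1 spread shared by all groups. For Lox the SD was 1.00 in adult right ventricles, and 0.05 in left and 0.16 in right ventricles at E12.5. For Emilin1 these were 0.61, 0.04 and 0.11. Fbn2 gave -0.35 ± 0.31 with overlapping arrays. Fbln1 ran the other way, at 0.34 ± 0.29, with all left arrays above the right. The median of the 7 genes was -0.75, against 0.006 over all genes.

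Markers of valve and endocardial cushion tissue also differed between the ventricles at this stage. Of 10, 7 were lower in the left ventricle at E12.5 (0.918% of all genes were): Has2 (-1.54), Prrx1 (-1.47), Twist1 (-1.09), Msx1 (-0.89), Sox9 (-0.84), Scx (-0.66) and Msx2 (-0.61). The list's mean was 6.56 to 7.02 in left and 7.73 to 7.79 in right arrays. Among 10 fibroblast markers Lum, a small collagen-binding proteoglycan, was lower (-1.78). Among 8 pericyte markers Rgs5, a regulator of G protein signalling in mural cells, was lower (-2.93), and among 9 smooth muscle markers Tagln was (-0.72). No epicardial, endothelial or heart muscle marker was called, of 8, 9 and 10. The mean of the 9 smooth muscle markers was 8.96 to 9.01 in left and 9.14 to 9.16 in right arrays. Among them Myh11, a defining smooth muscle gene, lay at 3.99 in left and 4.19 in right ventricles. At E9.5 the valve and cushion list averaged 7.92 in left and 8.29 in right ventricles. At E12.5 it averaged 6.84 in left and 7.75 in right ventricles, lower in both than at E9.5. Left arrays lay below right ones for this list at E9.5, E18.5 and day 3 too, by less than at E12.5. The left and right means were 6.27 and 6.42 at E18.5, and 6.25 and 6.51 at day 3. The part of cushion tissue or of smooth muscle in the ventricle difference at E12.5 was not tested.

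**Figure D3:**
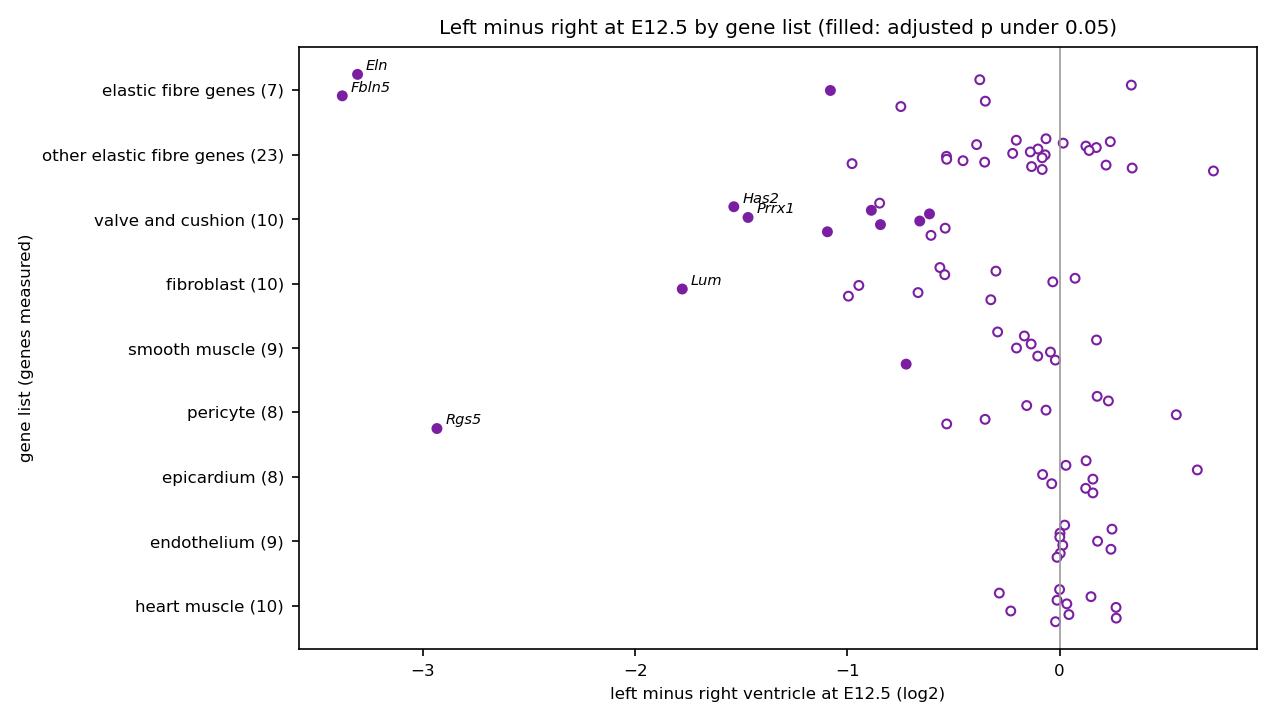
Left minus right ventricle at E12.5 on the log2 scale (horizontal axis) for single genes (points) of 9 lists (vertical axis, genes measured in brackets). Filled points passed the test. Fbln5 and Eln lie farthest left, followed by Rgs5 at -2.93, and 7 of 10 valve and cushion markers are filled.

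By E14.5 the ventricles overlapped for Eln and Fbln5. Eln gave 7.92, 9.60 and 9.89 in left and 8.88, 9.21 and 8.21 in right ventricles, and Fbln5 gave 7.24, 8.45 and 9.22 in left and 8.62, 8.93 and 7.98 in right. Neither gene separated the ventricles, and left array 1 was the lowest of its group for both genes. The differences were 0.37 ± 0.38 and -0.21 ± 0.29 (limma's adjusted p = 0.596 and 0.715). Left minus right moved up by 3.68 ± 0.54 for Eln (adjusted p = 1.46e-04), 3.17 ± 0.41 for Fbln5 (2.28e-05), 1.56 ± 0.30 for Fbln2 (0.0036) and 1.55 ± 0.39 for Lox (0.0326) from E12.5 to E14.5. These were 4 of 7 genes, against 1.11% of all genes.

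Fbln5 took opposite courses in the ventricles between these stages. In left ventricles Eln rose by 2.70 ± 0.31 (6.47-fold), Fbln5 by 1.67 ± 0.29 and Lox by 0.88 ± 0.22, so 3 of 7 were higher (3.66% of all genes) and 0 lower (2.8%). In right ventricles Fbln5 fell by 1.5 ± 0.25, Fbln2 by 1.40 ± 0.24, Fbn2 by 1.12 ± 0.33 and Emilin1 by 0.65 ± 0.21, so 4 of 7 were lower (8.16%) and 0 higher (9.09%). Eln in the right ventricle gave -0.99 ± 0.37 (limma's adjusted p = 0.0682). These SEs use 1 spread shared by all stages. The left E14.5 arrays alone had an SD of 1.07 for Eln and 1.00 for Fbln5, so their SEs understate the spread at that stage. With the ventricles averaged, only Eln was called higher (0.86 ± 0.25, 7.18% of all genes) and Fbln2 lower (-0.63 ± 0.16, 6.09%), and Fbln5 stood at 0.09 ± 0.20. With 1 replicate left out, the averaged call of Eln held only without E14.5 replicate 1 (0.63 to 1.13), and that of Fbln2 was lost without the same replicate (-0.55).

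Fbln1 and Fbn2 were called higher in the left ventricle at E14.5 (2 of 7, against 4.24% of all genes), and 0 of 7 were called lower (4.27%). Fbln1 gave 9.22, 9.56 and 9.44 in left and 8.44, 8.52 and 8.60 in right ventricles, a difference of 0.89 ± 0.29 (limma's adjusted p = 0.049). Fbn2 gave 10.31, 10.21 and 10.51 in left and 9.11, 9.42 and 9.44 in right ventricles, a difference of 1.02 ± 0.31 (0.0353). Neither pair of groups overlapped. The Fbn2 call was lost in each of the 6 fits without 1 array (0.0502 to 0.147), and the Fbln1 call in 5 of 6, all but that without left array 1. Left array 2 held 1.73 more of the visceral endoderm list than the others, and without it the differences were 0.81 and 1.09 (0.194 and 0.0952). Lox was 0.81 ± 0.28 (0.0623). Of the fibroblast markers Col1a1 (1.54), Col1a2 (1.12) and Pdgfra (0.87) were higher in the left ventricle too, 3 of 10, and of the pericyte markers Cspg4 (0.81), Notch3 (0.81) and Pdgfrb (0.82), 3 of 8. Their part was not tested.

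**Figure D4:**
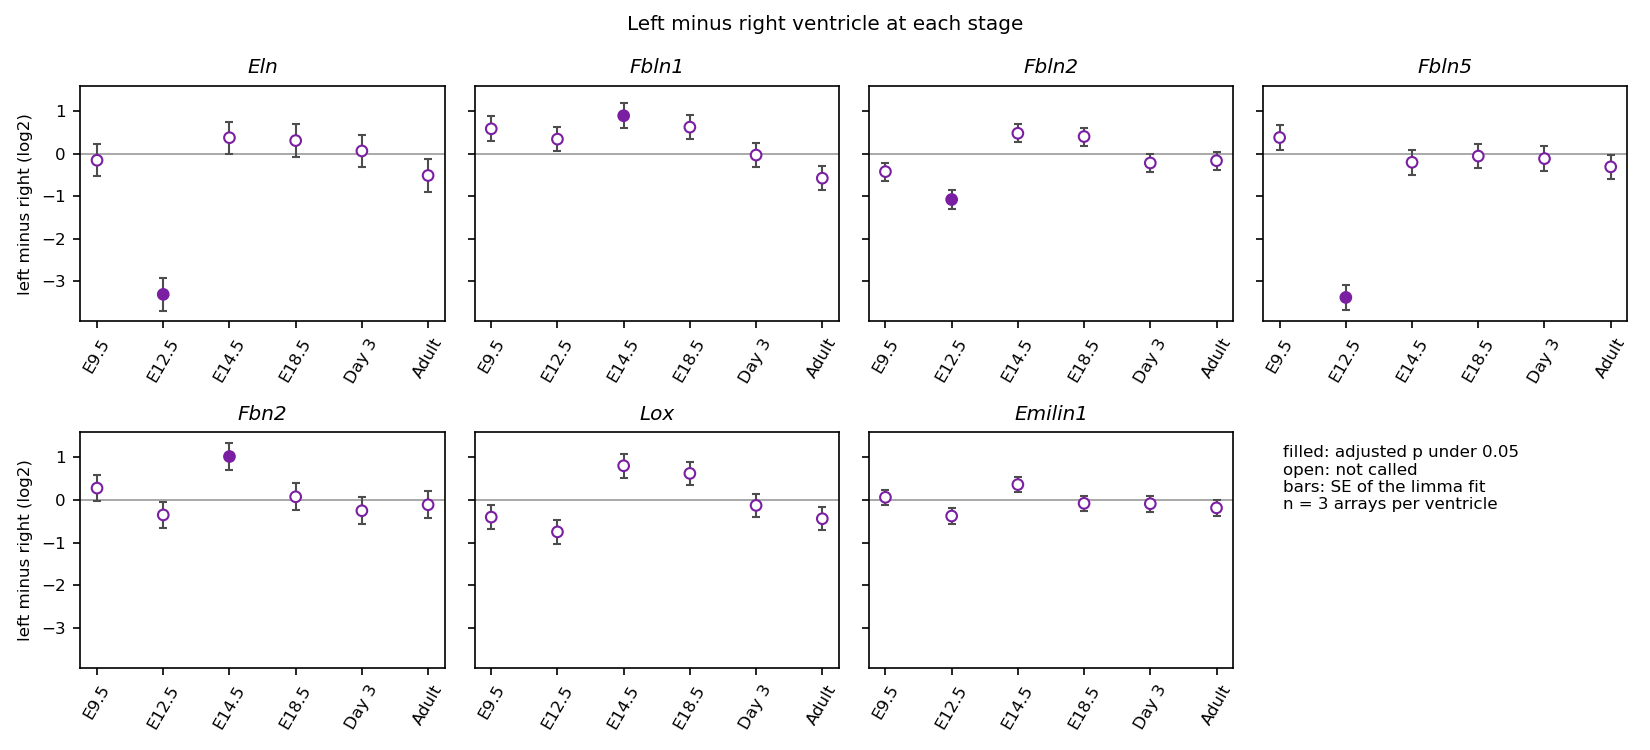
Left minus right ventricle on the log2 scale (vertical axis) at 6 stages (horizontal axis) for the 7 genes. Points are differences of group means with n = 3 arrays a side, bars are the SE of the limma fit, and filled points passed the test. Eln and Fbln5 fall to -3.31 and -3.38 at E12.5 and lie between -0.52 and 0.38 at the other stages.

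At the remaining stages 0 of 7 genes were called between ventricles in limma. The shares of all genes called were 3.5% at E9.5, 4.95% at E18.5, 0.0055% at day 3 and 0.0165% in the adult. Unadjusted p-values under 0.05 numbered 0, 2, 0 and 0 of 7, the 2 being Fbln1 (0.62 ± 0.29) and Lox (0.63 ± 0.28) at E18.5, both higher in all left arrays. Left arrays of E18.5 also held more of the epicardial list, at 8.43 to 9.09 against 7.55 to 7.755 in right arrays. They held more of the lung and thymus list too, at 5.24 to 6.60 against 4.95 to 5.10. The part of these tissues was not tested. Without right array 2 the adult comparison again gave 0 calls, with 1 unadjusted p under 0.05 (Fbn2, 0.56 ± 0.24). With only the groups compared, Fbln1 was called at E9.5 (0.58, adjusted p = 0.0246) and at E18.5 (0.0419). Over 6 stages the mean of left minus right was -0.62 ± 0.12 for Fbln5 (adjusted p = 0.00112) and -0.54 ± 0.16 for Eln (0.0463), 2 of 7 against 2.97% of all genes. E12.5 carried these means: over the 5 other stages they were -0.06 ± 0.13 for Fbln5 and 0.01 ± 0.17 for Eln, and limma called 0 of 7, with 1 at an unadjusted p under 0.05 (Fbln1). The Eln call held in 10 of 36 fits without 1 array (-0.61 to -0.43) and was lost with the replicate number as a block (0.0765). Without right array 2 of the adults Eln was not called (-0.43, 0.0576) and Fbln1 was (0.43, 2.64e-06).  Dependence of left minus right on stage was called for 4 of 7 genes, against 5.85% of all genes.

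With the ventricles averaged, the calls of late fetal life were all falls, and those of the step to day 3 were all rises. From E14.5 to E18.5, Fbn2 (-1.01 ± 0.27), Emilin1 (-0.77 ± 0.16), Fbln1 (-0.65 ± 0.21) and Fbln5 (-0.56 ± 0.20) were lower, 4 of 7 against 18.7% of all genes, and 0 were higher (11.8%). Fits without 1 replicate kept Fbn2 and Emilin1. The Fbln1 call held only without E14.5 replicate 1 or E18.5 replicate 2 (-0.72 to -0.61 over 6 fits), and the Fbln5 call only without E14.5 replicate 1 or E18.5 replicate 1 (-0.80 to -0.42). Left array 2 of E18.5 held 2.03 more of the visceral endoderm list than the others, and without the 5 marked arrays Fbln1 was not called (-0.56, limma's adjusted p = 0.0502). Right ventricles alone gave 0 calls, with Fbn2 at -0.54 ± 0.33. Eln, Fbln2 and Lox lay within 0.18 of their E14.5 means.

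From E18.5 to day 3, Fbln2 (1.14 ± 0.16), Eln (1.04 ± 0.25) and Fbln5 (0.71 ± 0.20) were higher, 3 of 7 against 9.94% of all genes, and 0 were lower (10.3%). Eln gave 9.11, 9.47 and 9.27 in left and 9.19, 8.78 and 8.96 in right ventricles at E18.5, then 10.41, 10.16 and 10.02 in left and 9.74, 10.17 and 10.51 in right ventricles at day 3. All day 3 values were above those of E18.5, and day 3 held the highest mean of the 9 stages for Eln and Fbln2. For Fbln5 it did so only with the ventricles averaged, since its highest group was the right ventricle of E12.5 (10.01, against 8.61 in the right ventricle at day 3). The Fbln5 call was lost without E18.5 replicate 2 or day 3 replicate 3 (0.65 in either fit). In left ventricles alone Fbln5 was not called (0.68 ± 0.29, limma's adjusted p = 0.108) and Fbln1 was called lower (-0.54 ± 0.14, 0.00873), as 8.75% of all genes were, while right ventricles gave Fbln1 0.12 ± 0.34. Without the 5 marked arrays Emilin1 was called higher as well (0.39, 0.0416). Of 10 fibroblast markers 2 were higher and 0 lower at this step, with a median of 0.47. Hearts were pulverised frozen at day 3 and in the adult but not before, so this handling and the stage cannot be told apart in the step to day 3.

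The adult ventricle parted the set. Fbn2, Eln, Lox, Emilin1 and Fbln2 were lower than at day 3 (5 of 7, against 26.4% of all genes), Fbln1 was higher (1 of 7, against 22.3%), and Fbln5 was not called. Fibroblast markers moved at the same step: 5 of 10 were lower (Col1a1, Col1a2, Col3a1, Postn and Tcf21) and 2 higher (Dcn and Pdgfra), with a median of -0.59, or -0.72 without right array 2. Their mean was 11.4 to 11.6 in day 3 arrays and 10.4 to 10.8 in adult arrays other than right array 2. Their part in the change of the members was not tested. Fbn2 gave 8.74 to 9.28 in the 6 arrays of day 3, and 4.6, 5.40 and 4.01 in left and 3.94, 6.12 and 4.27 in right adult ventricles. The adult values came down to or below the range of ESC, apart from array 2 of each ventricle. The difference was -4.26 ± 0.27 (limma's adjusted p = 4.32e-12), and -4.38 without right array 2.

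Eln gave 7.34, 7.91 and 7.67 in left and 7.35, 9.48 and 7.65 in right adult ventricles, all below day 3. The difference was -2.27 ± 0.25 (4.82-fold, limma's adjusted p = 4.6e-08), and -2.53 without right array 2. Lox gave 6.44, 6.44 and 6.73 in left and 6.39, 8.13 and 6.42 in right ventricles against 8.33 to 8.62 at day 3, a fall of 1.78 ± 0.23, or 2.06 without that array. Emilin1 (-0.94 ± 0.16) and Fbln2 (-0.63 ± 0.16) moved less and their adult arrays overlapped day 3; without that array they were -1.07 and -0.79. Fbln5 stayed between 8.02 and 9.29, against 8.41 to 8.82 at day 3, a difference of -0.07 ± 0.20 (adjusted p = 0.794), or -0.21 ± 0.18 without right array 2. Right array 3 held 2.17 more of the atrial list than the other 2, and the 6 calls held without the 5 marked arrays.

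Against E9.5, adult ventricles had more Fbln5 (4.21 ± 0.20), Eln (2.60 ± 0.25), Fbln2 (1.86 ± 0.16) and Lox (1.84 ± 0.23), 4 of 7 against 41.6% of all genes. They had less Fbn2 (-5.40 ± 0.27) and Emilin1 (-0.38 ± 0.16), 2 of 7 against 32.9%. Without right array 2 the values were 4.07, 2.34, 1.71, 1.56, -5.52 and -0.51, and Fbln1 was called as well (-0.37, limma's adjusted p = 0.00476). The Emilin1 call held only without E9.5 replicate 1 or adult replicate 2 (-0.58 to -0.22 over 6 fits). In left ventricles alone Emilin1 (-0.51 ± 0.15) and Fbln1 (-0.65 ± 0.14) were lower, as 31.2% of all genes were, and in right ventricles Emilin1 gave -0.26 ± 0.21 and Fbln1 0.51 ± 0.34, neither called.

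The level of Fbln1 in the adult depended on the probe set. Its brightest probe set gave 8.17, 8.11 and 7.98 in left and 8.27, 7.93 and 8.17 in right ventricles at day 3, then 9.03, 9.80 and 9.58 in left and 9.5, 11.58 and 9.07 in right adult ventricles. The groups did not overlap, and the rise was 1.66 ± 0.21 (3.15-fold), or 1.36 without right array 2. Another Fbln1 probe set, which had the largest variance, rose by 2.48 ± 0.22 at the same step, or 2.15 without that array. From E9.5 to the adult the brightest set gave -0.07 ± 0.21 and the other gave 1.81 ± 0.22 (limma's adjusted p = 1.18e-07), or -0.37 and 1.48 without that array. From E7.5 to E8.5 they gave 0.85 ± 0.21, which was called, and -0.19 ± 0.22, which was not. Over 15 group means their Pearson r was 0.75, and which transcripts each reads was not tested. Group means of the remaining Fbln1 set stayed between 5.67 and 6.06.

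**Figure D5:**
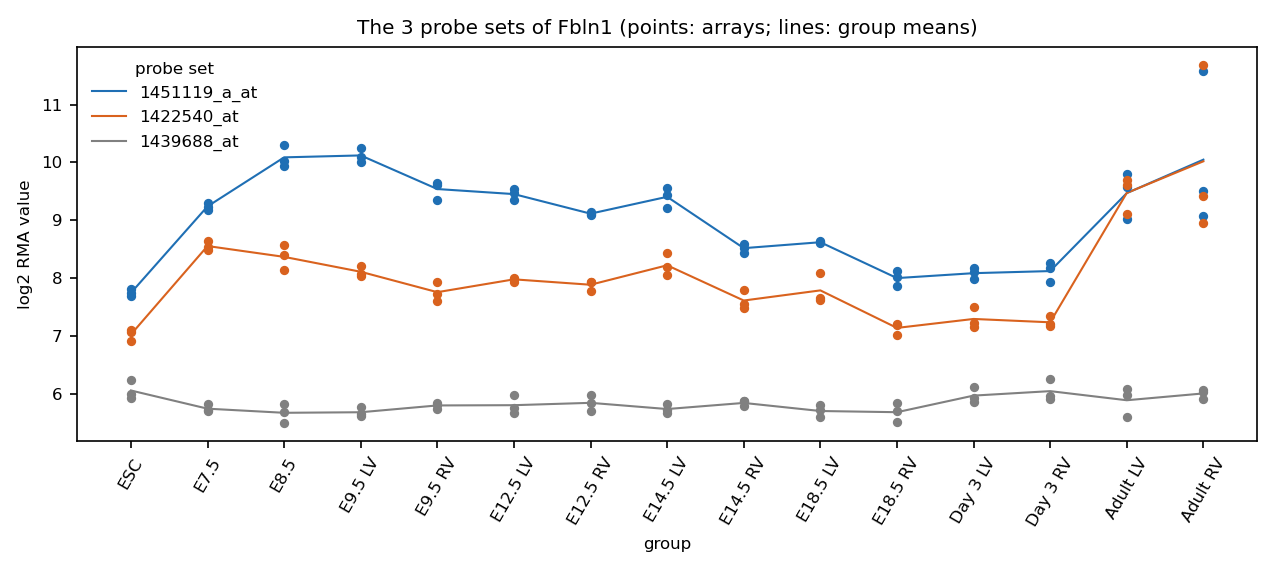
Log2 RMA values (vertical axis) of the 3 Fbln1 probe sets in 15 groups (horizontal axis). Points are arrays and lines join group means. From E9.5 to the adult the set used in the report differs by -0.07 and another by 1.81, and the means of the remaining set stay between 5.67 and 6.06. Heights of different sets are not comparable.

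Further probe sets of the other genes were compared over the 15 group means. The Pearson r with the set used was 0.999 for Fbn2, 0.985 for Lox, 0.979 for Emilin1 and 0.89 for Eln. The group means of the further Eln set spanned only 1.09. It gave 6.19 in left ventricles at E9.5, then 6.24 in left and 6.73 in right ventricles at E12.5. The further sets of Fbln2 and Fbln5 and another of Lox were nearly flat, with group means spanning 0.30, 0.66 and 0.57 on the log2 scale. At E12.5 that of Fbln5 gave 4.13 in left and 4.07 in right ventricles. The sizes of the E12.5 ventricle differences of Eln and Fbln5 thus rest on 1 probe set each.

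Other genes of elastic fibres and microfibrils, 23 of 26 measured, went partly the same way. From E9.5 to E12.5, 12 were higher (20.1% of all genes were) and 2 lower (18%), with a median difference of 0.42. The largest were Mfap4 (2.63), a microfibril-associated glycoprotein, Ltbp3 (2.38), a binder of latent TGF-beta, Efemp1 (2.25), also called fibulin 3, and Loxl1 (1.96), a lysyl oxidase. Between ventricles at E12.5, 0 of 23 were called (1.26% of all genes were), with 4 at an unadjusted p under 0.05, and the median was -0.08. At E14.5 Fn1 (fibronectin) was higher in the left ventricle (1.00), and at E18.5 Efemp1 (1.46) and Loxl1 (0.75) were. Left arrays of E18.5 held more epicardial and lung and thymus marker signal than right arrays, and its part was not tested.

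From E18.5 to day 3, 8 of 23 were higher (9.94% of all genes were) and 0 lower (10.3%). Loxl1 (0.90), Emilin2 (0.81), Mmrn2 (0.70) and Ltbp4 (0.63) rose by the most. In adults 8 were higher (22.3% of all genes were) and 6 lower (26.4%) than at day 3. Emilin2 (-2.37) and Fn1 (-2.17) fell, and Mmrn1 (2.24), which encodes multimerin 1, and Adamtsl4 (1.95), whose protein binds fibrillin microfibrils, rose. Without right array 2, 7 were higher and 8 lower, with Emilin2 at -2.35, Fn1 at -2.39, Mmrn1 at 2.06 and Adamtsl4 at 1.85.

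Of 16 measured genes for enzymes able to cleave elastin and their inhibitors, 8 were higher and 1 lower at E12.5 than at E9.5. Of all genes, 20.1% were higher and 18% lower. Ctss (cathepsin S, 4.42), Ctsk (cathepsin K, 1.60), Mmp2 (1.55) and the inhibitor Timp3 (1.14) led. From day 3 to the adult 5 were higher (22.3% of all genes were) and 3 lower (26.4%). Mmp14 (-1.73), Timp1 (-1.41) and Serpinb1a (-0.97) were down and Ctss (1.18) up. Without right array 2, 5 were higher and 5 lower, with Mmp14 at -1.87, Timp1 at -1.7, Serpinb1a at -1.06 and Ctss at 0.99. Between ventricles at E12.5, 0 of 16 were called (1.26% of all genes were), with 1 at an unadjusted p under 0.05.

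Of 17 genes of TGF-beta signalling, a pathway that drives matrix genes, 8 were higher (20.1% of all genes were) and 0 lower (18%) at E12.5 than at E9.5. Among the higher were Tgfbi (1.51), Tgfbr2 (1.5), Tgfb3 (1.26) and Itgb8 (0.95). At E12.5, 2 of 17 were lower in the left ventricle (0.918% of all genes were). They were Tgfbi (-0.98 ± 0.24, limma's adjusted p = 0.0241) and Thbs1 (-0.87 ± 0.21, 0.0204), whose thrombospondin can activate latent TGF-beta. From E12.5 to E14.5, 1 was higher (7.18% of all genes were) and 7 lower (6.09%), with Thbs1 (-1.06) and Tgfbi (-0.95) the largest falls.

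Over the 15 group means, which share arrays and stages, the members were compared with each other. Eln ran with Fbln5 (Pearson r = 0.926), Lox (0.894) and Fbln2 (0.85), while Fbn2 had its highest r with Emilin1 (0.718) and had 0.076 with Eln. Emilin1 was as close to Fbln2 (0.712), and had 0.592 with Lox and 0.535 with Eln. Fbln1 ran against Eln (-0.486). Among 10783 genes whose group means spanned at least 1, the closest to Eln were Lrrc17 (0.955), Mgat4b (0.951) and Cyth3 (0.948). For Fbln5 they were Ltbp3 (0.965), Lum (0.953) and Pcdhb17 (0.95), and for Lox Pcdhb3 (0.963), Krt80 (0.962) and Galnt5 (0.951). Those of Fbln2 were Cd200 (0.955), S1pr3 (0.953) and Mdfic (0.946), and those of Fbn2 were Igf2 (0.98), Bhlhb9 (0.971) and Igfbpl1 (0.966). Emilin1 was closest to Sh3bgrl (0.982), Rbms3 (0.972) and Igfbp4 (0.967). Fbln1 had the weakest likeness, to Mpdz (0.875), Heatr5a (0.866) and Spg20 (0.864). These are descriptions over 15 points.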

How the data were processed

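Per the submitters' processing notes, the authors made the deposited values with RMA as log2 values, of unstated version. RMA removes background, makes the arrays' distributions equal and combines the probes of a set. Quantile normalization removes a change shared by most genes, and RMA understates folds of dim genes.

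Probe sets with 1 gene symbol in the platform annotation were used, 1 per gene. Tests were two-sided in limma 3.58.1 (R 4.3.3; lmFit, eBayes), with Benjamini-Hochberg adjustment over 18193 genes and a threshold of 0.05. Stage comparisons used 27 values of 9 stages, with left and right ventricles of the same number averaged. Left minus right used 45 arrays as 15 groups. The number of arrays limits the precision, and although the labels call replicates biological, p-values measure only the spread between them. Stage dependence was an F-test on 5 degrees of freedom. Calculations were checked on simulated data.

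At E12.5 ventricles with the same number deviated in common (r = 0.271, 0.321 and 0.369 over all genes). At E9.5 and day 3 all 3 pairs were above 0, but the weakest had 0.071 and 0.027. At E18.5 all 3 were below 0 (-0.236, -0.155 and -0.318), and at E14.5 and in adults the signs were mixed. The pairing at E12.5 comes from the data, and a block changed no call at E12.5.

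The rule named all members, up to 4 called genes per pathway list and comparison with the largest differences, and for each member the 3 genes most like it. Marker genes and ventricle values were named outside that rule, after their values were seen. Members and lists were chosen with earlier results of these data known. Of 209 listed genes 193 were measured. Python 3.11.15 with pandas 2.3.3 and Matplotlib 3.10.9 made tables and plots.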

Additional observations from a re-analysis of the deposited data

Results flagged for a closer look

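Left minus right ventricle depended on the stage for 4 of the 7 genes in limma's F-test over 6 stages, 3 arrays a group. The adjusted p was 4.03e-07 for Fbln5, 6.76e-05 for Eln, 0.0057 for Fbln2 and 0.0291 for Lox. For Fbln5 and Eln the left ventricle was lower in 3 of 3 arrays at E12.5 and overlapped the right at the other 5 stages. For Fbln2 and Lox it was lower in 3 of 3 arrays at E12.5 and higher in 3 of 3 at E14.5 and at E18.5. Fbln1 (0.114), Fbn2 (0.21) and Emilin1 (0.357) did not pass.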

How the results depend on the processing

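Each of the 64 member differences called under at least 1 setting was recomputed under the alternatives, and causes of changed values were not tested. Between ventricles at E12.5 the 3 calls held without any 1 array (3 in each of 6 fits), and 5 were made with only the groups compared. From E9.5 to E12.5, 5 of 6 calls held in each such fit. Marked arrays are 5 with over 1.5 more of another tissue's marker list than the rest of their group. Other counts of called members moved. E9.5 against E8.5 had 1 call, and 2 with only the groups compared, left ventricles alone or the replicate block. E14.5 against E12.5 had 2, and 1 with the mean of all probe sets, 0 at a threshold of 0.01, 5 with only the groups compared, 4 in right ventricles and 1 in each fit without 1 replicate. E18.5 against E14.5 had 4, and 2 at 0.01, 0 in right ventricles and 2 to 4 without 1 replicate. Left against right at E14.5 had 2, and 1 with a trended robust prior or the largest-variance probe set, 0 at 0.01 or without marked arrays, and 0 to 1 without 1 array. At E9.5 and E18.5 it had 0, and 1 with only the groups compared. The mean over stages had 2, and 1 with the trended prior, the mean of probe sets, 0.01 or the replicate block, 0 over the 5 stages other than E12.5 (Eln 0.012), and 1 to 2 without 1 array. Under the block Eln (E9.5 against E8.5, adjusted p = 0.0434), Emilin1 (day 3 against E18.5, 0.0483) and Lox (left against right at E14.5, 0.0468) gained a call, and Eln lost that of the mean (0.0765).

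Signs turned as follows. E8.5 against E7.5 gave Fbln1 -0.187 (largest-variance probe set), Fbln5 -0.029 and Lox -0.03 (mean of probe sets), with Lox at -0.045 to 0.542 without 1 replicate. E14.5 against E12.5 gave, in right ventricles, Eln -0.985, Fbln5 -1.501 and Lox -0.674, in left ventricles Fbln2 0.153, Fbn2 0.253 and Emilin1 0.09, and Lox -0.047 without marked arrays. Fbln5 there ran from -0.056 to 0.326 without 1 replicate. Fbln1 gave 0.121 for day 3 against E18.5 in right ventricles. Fbln1 in adults against E9.5 gave 0.65 (mean of probe sets), 1.813 (largest-variance set), 0.173 (housekeeping scaling), 0.014 (without marked arrays), 0.508 (right ventricles) and -0.536 to 0.175 without 1 replicate. Housekeeping scaling moved the median of all genes by 0.207 for E7.5 against ESC, by -0.119 for E12.5 against E9.5, by 0.224 for adult against day 3 and by 0.245 for adult against E9.5, and lost 4 calls. Omitting right array 2 of the adults, and E12.5 from the mean over stages, was chosen after seeing the data. With 3 arrays a group, small differences could not be called.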
